A study of Rattus norvegicus with 4 samples.

Results

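The erythroid microRNA probes described here are those of rno-miR-451, rno-miR-144 and rno-miR-486 in rat, 5 spots named miR-451-5p, miR-451-3p, miR-144-5p, miR-144-3p and miR-486. They were taken by their names, with no threshold on the values, and make up 5 of the 761 rat miRNA probes on each array. The study measured miRNAs in liver sinusoidal endothelial cells (LSECs), the fenestrated cells lining the capillaries of the liver, and in primary hepatocytes, its parenchymal cells. All cells came from untreated Sprague-Dawley rats aged 10 weeks, which the title of the series gives as male. No allele, transgene or agent is named for either group. Each cell type has 2 samples, and each sample was labelled with Cy5 and hybridised alone to 1 of 4 single-colour Toray 3D-Gene arrays. Whether both samples of a cell type are from different rats, and how the cells were purified, is not stated, so each p-value measures only the spread between these samples. An exact test of 2 arrays against 2 cannot go below p = 0.333, and the p-values below therefore come from limma, which pools the spread over all tested miRNAs.

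MicroRNAs are short RNAs that, bound to Argonaute proteins, repress messenger RNAs carrying matches to their seed, the bases near the 5′ end. The genes of miR-144 and miR-451 are clustered and transcribed together, and in mouse and human the erythroid factor GATA1 drives them, so that both accumulate in developing red cells. The miR-451 hairpin is too short for Dicer and is cut by Ago2, and the mature miRNA comes from the 5p side. In human and mouse the miR-486 gene lies within Ank1, the gene of the red-cell membrane protein ankyrin, and the miRNA is abundant in red cells and in muscle. Mature red cells keep these miRNAs after losing their nucleus, and their signal in RNA from other cells is often read as a sign of red cells carried over.

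The sequences of 4 of the 5 probes' miRNAs were found in the RefSeq table of the GRCr8 rat assembly, and they are shown because the 4 arms come from 1 short stretch of chromosome 10. Capitals mark the seed, bases 2 to 8.
miR-144-5p: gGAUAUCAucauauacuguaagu
miR-144-3p: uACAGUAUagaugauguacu
miR-451-5p: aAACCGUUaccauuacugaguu
miR-451-3p: aUGGUAAUgguucucuugcugcu
The 4 seeds all differ. None of them was found in any other of the 693 rat mature names in the table (0 matches each), and none of the 4 miRNAs shared a run of more than 8 bases with another. On the plus strand of GRCr8, miR-144-5p lies at chr10:63459409-63459431 and miR-144-3p at chr10:63459446-63459465. The arms of miR-451 follow at chr10:63459585-63459606 for 5p and chr10:63459612-63459634 for 3p. The hairpins are shown next, with the mature arms in capitals, because they differ in the number of bases between the arms.
Mir144: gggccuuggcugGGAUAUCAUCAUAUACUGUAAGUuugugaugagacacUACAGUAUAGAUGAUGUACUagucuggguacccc
Mir451a: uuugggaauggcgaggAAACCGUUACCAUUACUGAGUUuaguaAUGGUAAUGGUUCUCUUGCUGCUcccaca
The Mir144 hairpin has 83 bases with 14 between its arms, and the Mir451a hairpin has 72 bases with 5 between its arms. The hairpins are separated by 89 bases. The nearest other gene annotated in GRCr8 is Eral1, which encodes a mitochondrial ribosome assembly factor, 134 bases from the cluster.

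Brightness is given as the spot's Cy5 median minus the trimmed mean of the blank spots on the same array, in linear intensity units, and is called the signal above blank. The detection limit of an array was its blank mean plus 2 SD of the blank spots. This limit let 680 and 660 miRNAs be detected on the LSEC arrays and 563 and 596 on the hepatocyte arrays, while 6.31 to 7.27% of blank spots also lay above it. Of the 513 spots without a probe, 31.2 and 35.5% lay above it on the LSEC arrays and 27.1 and 23.8% on the hepatocyte arrays. The median of the 32 negative control spots was also above the limit on both LSEC arrays and on hepatocyte array 2. A detection close to the limit is therefore near the level of the blank, no-probe and negative control spots. Blank spots scattered less on the LSEC arrays, with an SD of 1.15 and 1.24 units, than on the hepatocyte arrays, with an SD of 1.71 and 2.63 units. The 16 spike control spots were dimmer on the LSEC arrays, at a geometric mean of 12414 and 12289 units after background correction, than on the hepatocyte arrays, at 18054 and 30485 units. The miRNAs detected on all 4 arrays ran the other way, with a median signal above blank of 29.1 and 30.8 units in LSECs and 12.7 and 20.9 units in hepatocytes. A comparison between the cell types therefore depends on how the arrays are scaled. In these bulk samples, fewer cells of a type and less RNA per cell cannot be told apart.

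Of the erythroid probes, miR-451-5p was the one called as different between the cell types, and it was lower in LSECs. Its signal above blank was 23.5 and 17.7 units on the LSEC arrays, against 40.3 and 41.7 units on the hepatocyte arrays. Both hepatocyte arrays were higher than both LSEC arrays, and the groups did not overlap. How many of all miRNAs had such a gap in signal above blank was not counted. The means were 20.6 ± 4.15 units in LSECs and 41.0 ± 0.985 units in hepatocytes (SD, n = 2 each), a ratio of 0.503. After normexp background correction, an offset of 50 and quantile normalization, the log2 values were 6.21 and 6.12 in LSECs and 7.16 and 6.75 in hepatocytes. The fitted difference, LSEC minus hepatocyte, was -0.79 ± 0.15 (SE; 95% interval -1.21 to -0.36), a fold of 0.580 (limma, Benjamini-Hochberg adjusted p = 0.0242). The offset draws differences of dim probes such as these toward 0, and with an offset of 16 the difference was -1.22 (adjusted p = 0.0118). After blank subtraction and quantile normalization it was -2.04 (adjusted p = 0.0260). This is a larger gap than the ratio of 0.503 before normalization, so it is not the difference freed of the offset alone. The call depended on the scaling and on both LSEC arrays. Without normalization the difference was -0.39 (adjusted p = 0.0610), under spike scaling -0.02 (adjusted p = 0.854), without LSEC array 1 -0.75 (adjusted p = 0.194) and without LSEC array 2 -0.66 (adjusted p = 0.227), while subtraction of the deposited background column turned the sign (0.35, adjusted p = 0.944).

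The call on miR-451-5p stood among many. Of the 652 miRNAs tested, 240 were called in either direction (36.8%), 121 of them higher in LSECs (18.6%) and 119 lower (18.3%). Of the 5 erythroid probes, 3 could be tested and 1 was called, the mature strand of miR-451. Non-overlapping normalized values were commoner still, at 71.3% of the tested miRNAs (36.5% higher and 34.8% lower in LSECs). Of the 3 tested erythroid probes 2, both arms of miR-451, had them, and both were lower in LSECs.

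**Figure D1:**
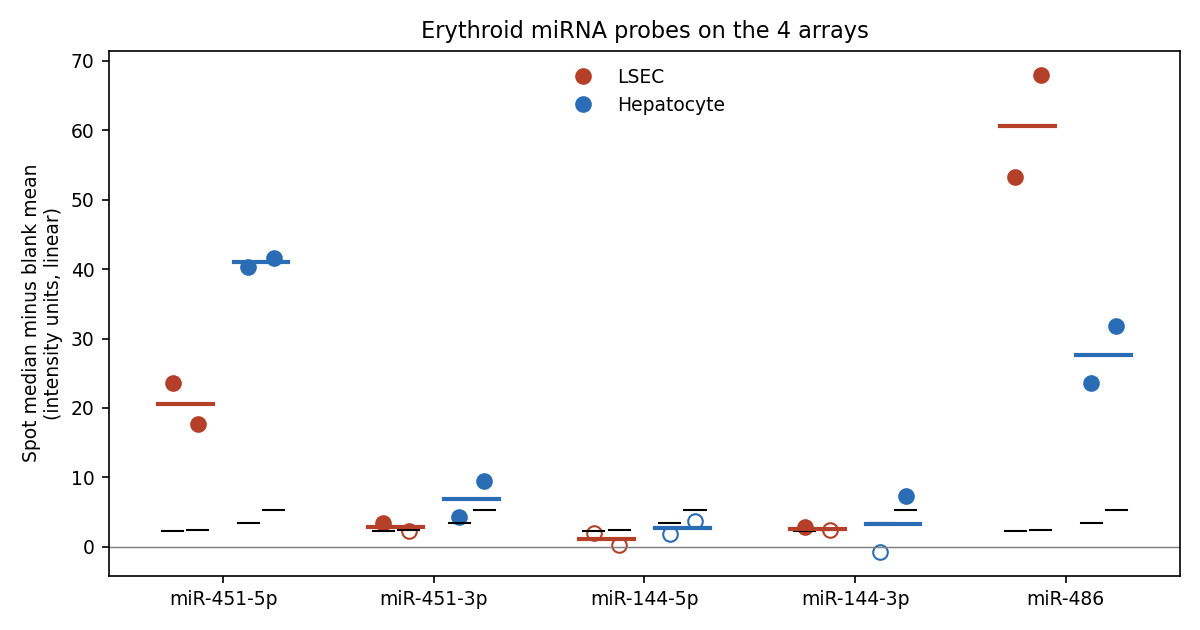
Signal above blank of the 5 erythroid probes on the 4 arrays, in linear intensity units. Points are arrays (LSEC red, left of hepatocyte blue; open where not detected), coloured bars are means of 2 arrays and short black bars are each array's detection limit. miR-451-5p stood at 17.7 to 23.5 units in LSECs and 40.3 to 41.7 in hepatocytes, miR-486 ran the other way at 53.2 to 68.0 and 23.6 to 31.8 units, and the other probes stayed below 10 units.

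The miR-451-5p spot stood clear of the blanks in both cell types. It stood 20.4 and 14.2 blank SDs above the blank mean on the LSEC arrays, and 23.5 and 15.8 SDs on the hepatocyte arrays. Of the 1664 blank spots, 0 and 0 were as bright on the LSEC arrays and 1 and 1 on the hepatocyte arrays, and no negative control spot was (0 of 32 on each array). Of the 513 spots without a probe, 4 and 19 were as bright on the LSEC arrays and 0 and 2 on the hepatocyte arrays. The miRNA was thus measured above the blank spots on all 4 arrays. Against the deposited background column the spot stood at 11.8 and 3.56 units in LSECs and at -5.78 and 9.73 units in hepatocytes. In the authors' deposited table, which scales each array by a constant of its own, miR-451-5p read 36.6 and 24.9 in LSECs and 96.9 and 65.1 in hepatocytes. Both LSEC arrays were lower there too, and the difference fitted to the log2 of those values was -1.40 (limma, adjusted p = 0.0077).

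The other arm, miR-451-3p, lay at the detection limit. Its signal above blank was 3.41 and 2.35 units in LSECs, against 4.31 and 9.54 units in hepatocytes. It was detected on LSEC array 1 and on both hepatocyte arrays, at no more than 3.63 blank SDs, and on LSEC array 2 it stayed below the limit at 1.89 SDs. Between 14 and 130 of the 1664 blank spots were as bright on the 4 arrays. So were 44 to 189 of the 513 spots without a probe and 10 to 22 of the 32 negative control spots. The groups did not overlap, and the fitted difference of -0.10 ± 0.04 (95% interval -0.21 to 0.01) did not pass the test (limma, adjusted p = 0.138). It did pass after subtraction of the blank mean (-1.30, adjusted p = 0.0387), median scaling (-0.17, adjusted p = 0.0270) and 75th percentile scaling (-0.29, adjusted p = 0.0050).

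Both arms of miR-451 come from 1 hairpin, and their difference was taken within each array. The 5p minus 3p difference in normalized log2 values was 0.33 and 0.26 on the LSEC arrays, against 1.21 and 0.75 on the hepatocyte arrays. It was lower on both LSEC arrays, by -0.69 ± 0.16 (limma over 213 hairpins, adjusted p = 0.0109), where 117 of the hairpins were called (54.9%). Before normalization the same difference was 0.43 and 0.35 in LSECs and 0.68 and 0.56 in hepatocytes, and the contrast of -0.23 did not pass (adjusted p = 0.0902). Nor did it pass after plain blank subtraction (-0.74, adjusted p = 0.316), and its 3p term lay near the detection limit on all 4 arrays. With 3p that close to the blanks, the value does not show that the arms changed unequally.

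Neither arm of miR-144, the cluster partner, rose clearly above the blanks. For miR-144-3p, the arm that represses targets in red cells, the signal above blank was 2.83 and 2.44 units in LSECs, against -0.72 and 7.32 units in hepatocytes. The hepatocyte arrays lay on both sides of the LSEC arrays, so the groups overlapped. It was detected on LSEC array 1 and on hepatocyte array 2, at 2.45 and 2.78 blank SDs. On these arrays 120 and 72 of the 513 spots without a probe were as bright. On hepatocyte array 1 miR-144-3p was dimmer than 1012 of the 1664 blank spots. The probe was not tested, since it was not detected on both arrays of either cell type.

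For miR-144-5p, the passenger arm in most tissues, the signal above blank was 2.04 and 0.24 units in LSECs and 1.82 and 3.69 units in hepatocytes. It was not well above background on any array (0 of 4), and 152 and 699 blank spots were as bright on the LSEC arrays and 328 and 231 on the hepatocyte arrays. The groups overlapped in signal above blank, and no fold is given. In normalized log2 values they did not, at 5.84 and 5.80 in LSECs and 5.86 and 5.86 in hepatocytes, all at the level of the blanks. Of the cluster, then, the mature strand of miR-451 was measured above the blank spots on all 4 arrays, and the other 3 arms lay between -0.42 and 3.63 blank SDs from the blank mean. Brightness is not compared between probes, which differ in how strongly they bind. A signal near the blanks is thus no measure of how much miR-144 there was beside miR-451.

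**Figure D2:**
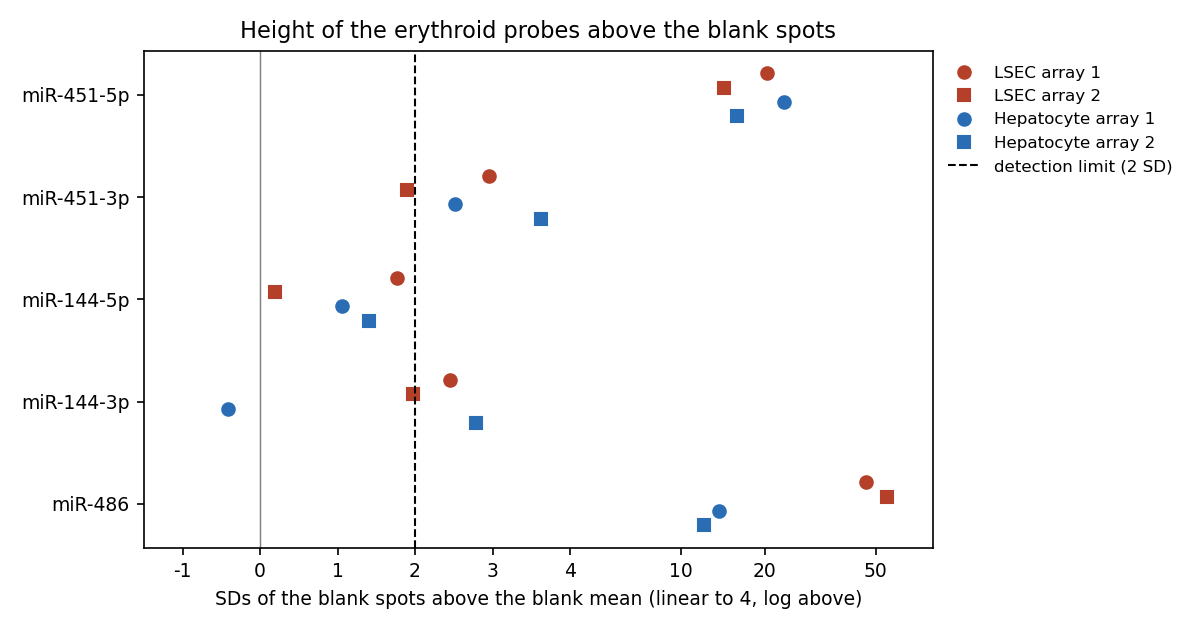
Distance of each erythroid probe from the blank mean of its array, in SDs of the blank spots (linear to 4, log scale above), for LSEC arrays (red) and hepatocyte arrays (blue); the dashed line is the detection limit of 2 SD. miR-451-5p and miR-486 lay 12.1 to 54.8 SDs above the blanks on every array, while miR-451-3p and both miR-144 arms lay at or below 3.63 SDs.

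The miR-486 probe was well above the blanks on all 4 arrays and brighter in LSECs before the arrays were normalized. Its signal above blank was 53.2 and 68.0 units in LSECs, against 23.6 and 31.8 units in hepatocytes, with means of 60.6 ± 10.5 and 27.7 ± 5.81 units (SD, n = 2 each). Both LSEC arrays were brighter and the groups did not overlap. The median miRNA detected on all 4 arrays was also brighter there, at 29.1 and 30.8 units against 12.7 and 20.9 units. How many of all miRNAs had such a gap before normalization was not counted. After quantile normalization this gap was gone: the log2 values were 6.58 and 6.65 in LSECs and 6.71 and 6.54 in hepatocytes, and the hepatocyte arrays lay on both sides of the LSEC arrays. The fitted difference was -0.01 ± 0.07 (95% interval -0.22 to 0.20; limma, adjusted p = 0.929). It stood 46.1 and 54.8 blank SDs above the blank mean on the LSEC arrays and 13.7 and 12.1 SDs on the hepatocyte arrays.

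The sign for miR-486 depended on the scaling. The difference was 0.39 under median scaling (limma, adjusted p = 0.0117), 0.89 under spike scaling (adjusted p = 0.000423) and 0.75 in the authors' deposited values (adjusted p = 0.0156), each higher in LSECs. Those values read 82.7 and 95.9 in LSECs and 56.7 and 49.6 in hepatocytes. With 75th percentile scaling it was 0.05 (adjusted p = 0.516) and without normalization 0.44 (adjusted p = 0.0558). No direction is given for miR-486 between the cell types.

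A shift common to all log2 values of an array cancels in a difference taken within it. Such a difference was taken between miR-451-5p and miR-486. An array's scale factor does not cancel fully here, because the log2 values include the offset of 50 and both spots are dim. The offset also draws the difference toward 0. The background-corrected log2 value of miR-451-5p minus that of miR-486 was -0.47 and -0.77 on the LSEC arrays, against 0.28 and 0.15 on the hepatocyte arrays. Both LSEC arrays were lower than both hepatocyte arrays, and the means, -0.62 and 0.21, lay -0.83 apart. The sign of each value has no meaning, since the probes differ in how strongly they bind. This pair was chosen after its values were seen and was not tested. It describes these 4 arrays, and does not say which of the miRNAs changed. Both miR-144 probes lay near the blanks, and no such difference is given against them.

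**Figure D3:**
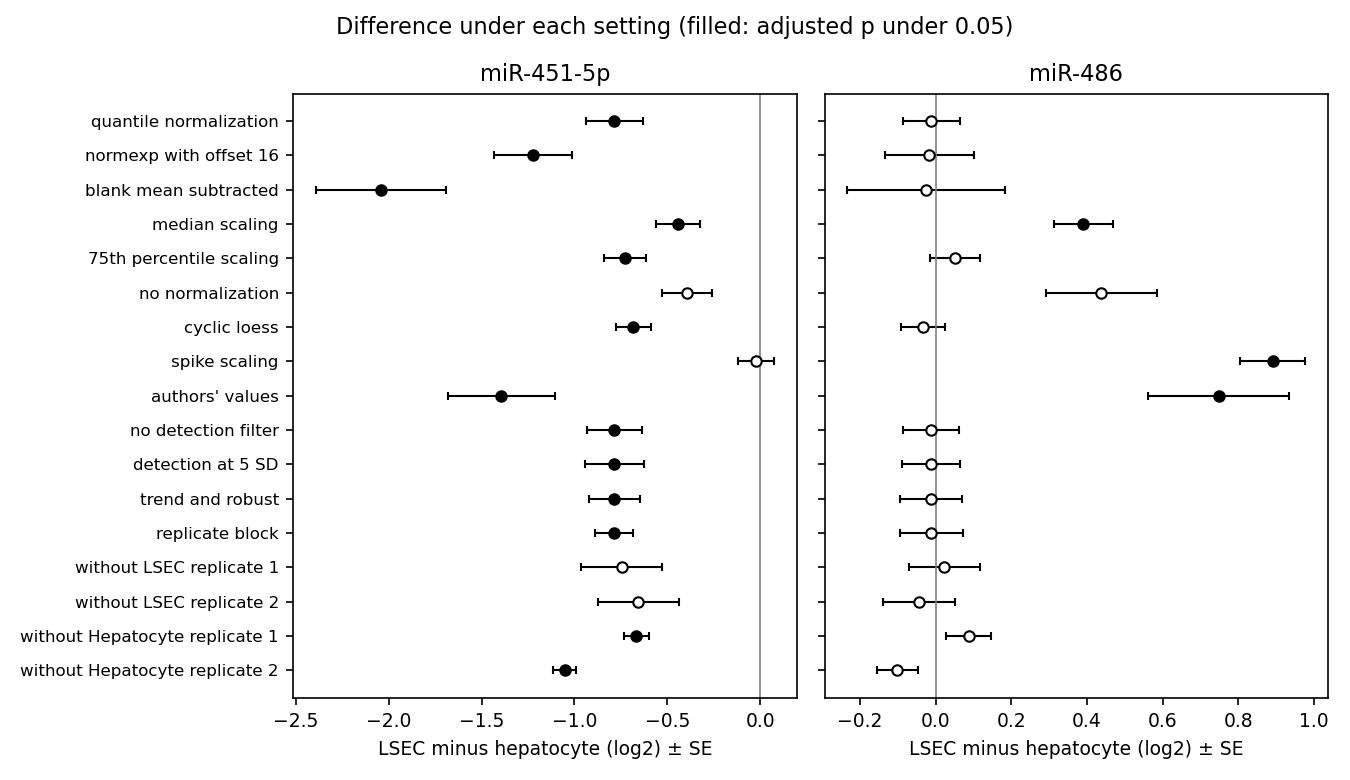
LSEC minus hepatocyte difference (log2, ± SE) of miR-451-5p and miR-486 under each processing setting and with each array left out; filled points have an adjusted p under 0.05. Subtraction of the deposited background column is not drawn. miR-451-5p was at or below -0.02 in every setting drawn and miR-486 lay on both sides of 0, up to 0.89 under spike scaling.

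In plasma, the difference between miR-451 and miR-23a-3p, a miRNA that haemolysis leaves steady in plasma, serves as an index of haemolysis. Here it was -5.91 and -6.15 on the LSEC arrays, against -1.06 and -1.53 on the hepatocyte arrays (background-corrected log2 values). The offset of 50 in these values raises the dimmer miR-451-5p more than miR-23a-3p. Without normalization miR-451-5p differed by -0.39 and miR-23a-3p by 4.34, which together make the gap of -4.74 between the means. The signal above blank of miR-23a-3p was 4591 and 5065 units in LSECs and 144.3 and 230.3 units in hepatocytes, and its normalized difference was 3.03 ± 0.08 (limma, adjusted p = 8.23e-05). The index presumes a steady miR-23a-3p, and here that miRNA was itself called higher in LSECs.

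A set of 10 other miRNAs abundant in red cells, which many other cells express as well, did not move as one after quantile normalization, although under median scaling, spike scaling and no normalization all 10 differences were above 0. Of the 10, all tested, 4 rose, 3 fell and 3 were not called, against 18.6% higher and 18.3% lower among all tested miRNAs. Their median difference was 0.08, with a range of -1.09 to 1.53, beside a median of 0 over all tested miRNAs. Their summed signal above blank was 8552 and 8351 units in LSECs and 1462 and 2504 units in hepatocytes. Most of this sum in LSECs was miR-16-5p, a ubiquitous repressor of cell-cycle genes, at 5863 and 5851 units in LSECs and 515.1 and 997.9 units in hepatocytes. The miR-16-5p difference was 1.53 ± 0.05 (limma, adjusted p = 0.00016), and its family member miR-15a-5p differed by 0.54 ± 0.08.

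Members of 1 seed family moved in different directions, and the families are printed to show how alike they are (RefSeq, GRCr8; seed in capitals).
miR-93-5p: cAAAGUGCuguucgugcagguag
miR-106b-5p: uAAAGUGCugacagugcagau
miR-20a-5p: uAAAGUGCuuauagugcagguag
miR-25-3p: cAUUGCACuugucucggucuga
miR-92a-3p: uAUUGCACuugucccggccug
miR-363-3p: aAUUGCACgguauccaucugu
The first 3 share the seed AAAGUGC of the miR-17 family, which promotes proliferation. Of these, miR-93-5p (0.15) and miR-106b-5p (0.38) rose in LSECs, while miR-20a-5p fell by 0.73 on the log2 scale. The other 3 share the seed AUUGCAC, and of these miR-92a-3p fell by 0.46, while miR-25-3p (-0.03) and miR-363-3p (0.08) were not called. The genes of miR-93, miR-106b and miR-25 lie together on chromosome 12, and those of miR-20a and 1 copy of miR-92a on chromosome 15. The chromosome 15 cluster also holds 1 copy of miR-19b, whose 3p arm fell by 1.09, at 771.8 and 855.3 units above blank in LSECs and 445.4 and 702.1 units in hepatocytes. The 3 falls depended on the scaling. The spots of miR-20a-5p, miR-92a-3p and miR-19b-3p were brighter above blank in LSECs on both arrays than on either hepatocyte array, and their differences were above 0 under median scaling, spike scaling, in the authors' values and without normalization. Under median scaling 8 of the 10 rose and 0 fell, where 221 of all 652 tested miRNAs rose and 108 fell. After blank subtraction 1 rose and 2 fell, where 116 of all 652 rose and 123 fell. Under spike scaling all 10 were called higher in LSECs, with a median of 1.42. Of all 652 tested miRNAs, 433 were called higher there and 21 lower, and their median also moved to 0.27. The remaining member, miR-185-5p, had 40.4 and 35.01 units in LSECs and 11.3 and 24.3 units in hepatocytes and was not called (0.07).

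Of 8 miRNAs tied to erythroid and megakaryocyte differentiation 7 were tested, of which 4 rose, 2 fell and 1 was not called, against 18.6% higher and 18.3% lower among all tested miRNAs. Their median difference was 0.24. Under spike scaling 7 rose and 0 fell, where 433 of all 652 tested miRNAs rose and 21 fell. Under median scaling 6 rose and 1 fell, against 221 and 108 of all 652. Without normalization 2 rose and 0 fell, against 150 and 27 of all 652. The largest rise was that of miR-24-3p, which represses the activin receptor ALK4 in human erythroid cells, at 3840 and 3948 units above blank in LSECs and 196.6 and 327.0 units in hepatocytes (2.36 ± 0.04). Further rises were those of miR-191a-5p (0.58), miR-155-5p (0.31) and miR-222-3p (0.24). miR-222-3p and miR-221-3p, which repress the stem cell factor receptor Kit and decline as human red cells mature, went opposite ways. miR-221-3p fell by 0.49, at 149.8 and 149.7 units in LSECs and 71.8 and 136.2 units in hepatocytes, and its difference was above 0 under median and spike scaling, without normalization and in the authors' values. The hypoxia-induced miR-210-3p fell by 0.68, at 34.4 and 29.8 units in LSECs and 34.1 and 55.4 units in hepatocytes. Under spike scaling its difference was 0.21. miR-320-3p was not called (0.08), and miR-376a-3p was detected on 1 array and not tested.

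Leukocyte miRNAs, the other blood-cell group, moved together. All 6 tested rose in LSECs, against 18.6% of all tested miRNAs, with a median difference of 1.55 and a range of 0.22 to 4.39. miR-150-5p, a miRNA of mature lymphocytes, had 1078 and 1329 units above blank in LSECs and 6.999 and 7.68 units in hepatocytes, a difference of 3.50 ± 0.08. miR-142-3p, which is restricted to blood-forming lineages, had 137.6 and 258.2 units in LSECs and 8.66 and 6.88 units in hepatocytes, a difference of 1.46 ± 0.22. The myeloid miR-223-3p had 86.6 and 79.9 units in LSECs and 17.9 and 17.9 units in hepatocytes (0.47 ± 0.11). For each of these the LSEC arrays were all higher. The other 3 were miR-146a-5p (4.39), which is induced by NF-kB, miR-142-5p (1.64) and miR-342-3p (0.22). The 6 leukocyte miRNAs summed to 3665 and 4345 units above blank in LSECs and 66.8 and 90.4 units in hepatocytes. The largest part of this sum in LSECs was miR-146a-5p, at 2088 and 2182 units, against 2.05 and 5.75 units in hepatocytes. All 6 differences were above 0 under each scaling of the spots. After cyclic loess or blank subtraction 4 of them passed the test, where 103 and 116 of all 652 tested miRNAs were called higher. After quantile normalization miR-451-5p was thus lower on the arrays where the leukocyte miRNAs were higher, but under spike scaling it differed by -0.02. miR-486 did not follow miR-451-5p: it differed by -0.01 after quantile normalization and by 0.89 under spike scaling. The part of other cells in these results was not tested.

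**Figure D4:**
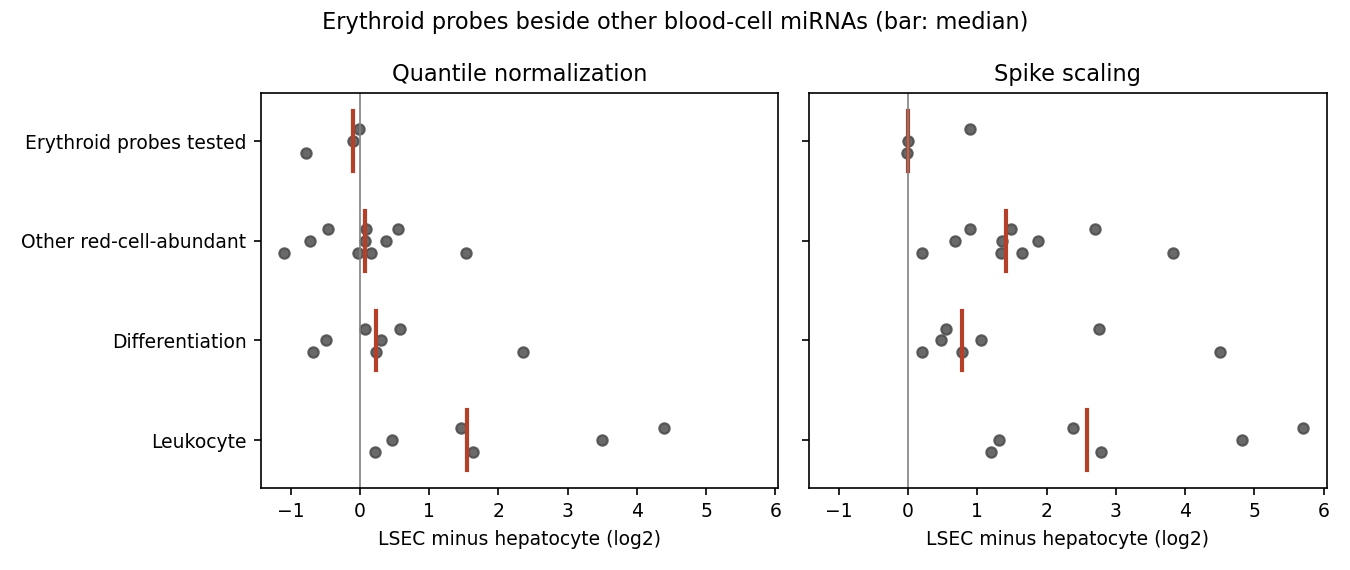
LSEC minus hepatocyte differences (log2) of the tested erythroid probes and of 3 lists of blood-cell miRNAs after quantile normalization (left) and under spike scaling (right); points are miRNAs and red bars are list medians. The medians of the other red-cell-abundant, differentiation and leukocyte lists were 0.08, 0.24 and 1.55 after quantile normalization.

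The labelled cell types carried their own markers. The counts that follow stand beside 18.6% of all tested miRNAs called higher in LSECs and 18.3% called lower. All 6 hepatocyte markers, among them the liver miRNA miR-122-5p, fell in LSECs (median -5.41), with sums of 198.1 and 183.6 units above blank in LSECs and 26587 and 47766 units in hepatocytes. Both arms of the endothelial miR-126a rose (median 7.11), with sums of 49365 and 50616 units in LSECs and 24.6 and 66.5 units in hepatocytes. The LSEC arrays also held more of 5 stellate and mesenchymal miRNAs, all 5 called (median 1.67), at sums of 1613 and 1394 units in LSECs and 46.9 and 87.1 units in hepatocytes. The 4 leukocyte markers summed to 1505 and 2068 units in LSECs and 44.3 and 52.4 units in hepatocytes. Of 5 epithelial and cholangiocyte markers 4 were tested and 3 fell (median -0.37), and of 2 miR-511 arms, carried by Kupffer cells and LSECs, miR-511-3p rose by 2.79 and miR-511-5p was not called.

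The miRNAs with the pattern most like each erythroid probe were found by the Euclidean distance over the 4 normalized log2 values, after subtracting each probe's own mean, among 481 or 482 other probes detected on all 4 arrays. For miR-451-5p they were miR-339-5p (distance 0.213), miR-29c-3p (0.229) and miR-25-5p (0.231), which differed by -0.71, -0.62 and -0.66 and were all called lower in LSECs. For miR-486 they were miR-298-5p (0.0276), miR-487b-5p (0.0364) and miR-3558-5p (0.0453), which differed by -0.02 to 0.02. For the dim probes they were miR-380-5p, miR-471-3p and miR-490-3p for miR-451-3p, miR-542-5p, miR-880-3p and miR-761 for miR-144-5p, and miR-30e-3p, miR-297 and miR-2985 for miR-144-3p. None of these 9 was called (0 of 9 by limma). All neighbours were picked by the same 4 values that give the difference, so their differences and calls had to resemble the probe's own. miR-451-3p and both miR-144 arms were not among the probes searched.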

How the data were processed

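Total RNA was labelled with Cy5 and hybridised to 1 array per sample, per the labels' protocols. The authors deposited scanner tables with each spot's Cy5 median as linear intensity, merged from scans at 3 gains per the file headers, and a table of processed intensities. Set against the spots, those equalled the spot minus the blank mean times a constant per array, with dim values missing. Blank means and SDs left out 5% of blank spots at each end. Background was corrected by normexp on all 3200 spots (offset 50), the 761 miRNA probes were quantile-normalized, and the 652 that both arrays of either cell type (or of each) detected were fitted with limma (R 4.3.3, limma 3.58.1) with calls at an adjusted p (Benjamini-Hochberg) under 0.05. Scaling alternatives were applied before the offset was added. The probes and lists were chosen with earlier results of these data known. The naming rule took all erythroid probes, the 3 miRNAs nearest to each and miR-23a-3p, and allowed any member of the lists and markers. The fit was tested on simulated data. The sequence of miR-486 was not used here.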

Additional observations from a re-analysis of the deposited data

How the results depend on the processing

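The lower miR-451-5p in LSECs (-0.79) kept its direction and its call (limma, adjusted p under 0.05) in 12 of 17 alternatives, at -1.22 with an offset of 16 and -2.04 after blank subtraction. Some of the 12 reuse the same normalized values: no detection limit, a limit of 5 SD, other variance settings and the replicate block. There the difference stayed at -0.79, and its direction could not change. The difference lost the call without normalization (-0.39), under spike scaling (-0.0221) and with either LSEC array left out, which leaves 1 array in that group. It reversed to 0.35 (adjusted p = 0.944) when the deposited background column was subtracted, where 4 miRNAs in all were called. The values with 1 array left out ran from -1.05 to -0.66 for miR-451-5p, -0.14 to -0.07 for miR-451-3p, -0.10 to 0.087 for miR-486 and -0.98 to -0.53 for the miR-451 arms. For miR-451-3p the call appeared after blank subtraction (-1.30), median scaling (-0.17) and 75th percentile scaling (-0.29). For miR-486 the sign turned under median scaling (0.39), 75th percentile scaling (0.0509), no normalization (0.44), spike scaling (0.89) and in the authors' values (0.75), and without LSEC array 1 (0.02) or hepatocyte array 1 (0.087). The miR-451 arm difference did not pass after blank subtraction (-0.74) or without normalization (-0.23). The cause of these shifts was not tested. Against 240 miRNAs called in all after quantile normalization (121 higher and 119 lower in LSECs), the totals were 445 under 75th percentile scaling (137 higher, 308 lower), 454 under spike scaling (433 and 21), 329 under median scaling (221 and 108), 177 without normalization (150 and 27), 307 in the authors' values (196 and 111) and 116 to 231 with 1 array left out. The median difference over the 652 tested miRNAs moved to -0.15 under 75th percentile scaling and to 0.27 under spike scaling, and was 0.28 in the authors' values, over 482 miRNAs. Array numbers share no stated origin, and deviations of same-numbered arrays correlated at 0.03. With the number as a replicate block miR-451-5p differed by -0.79 (adjusted p = 0.0167), miR-451-3p by -0.10, miR-486 by -0.01 and the miR-451 arms by -0.69, and 200 miRNAs were called. Signal close to the blanks limits both miR-144 arms and miR-451-3p.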

Other observations

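The spots next to the erythroid probes on the array grid were looked up after the values were seen. The brightest of the 5 neighbours of miR-451-5p read 77.9 and 77.0 units on the LSEC arrays and 84.7 and 104.8 units on the hepatocyte arrays, background included. The miR-451-5p spot itself read 94.4 and 89.4 units in LSECs and 119.8 and 133.8 units in hepatocytes, brighter than all of its neighbours on every array. Among the 5 neighbours of miR-486 was miR-148a-3p, a hepatocyte miRNA, at 110.6 and 120.3 units on the LSEC arrays and 683.3 and 1172 units on the hepatocyte arrays. The miR-486 spot read 124.1 and 139.8 units in LSECs and 103.1 and 123.9 units in hepatocytes, background included. Blank means were 70.9 and 71.8 units on the LSEC arrays and 79.5 and 92.1 units on the hepatocyte arrays. Any effect of that neighbour on the miR-486 spot was not tested.

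The deposited background column for miR-451-5p read 82.6 and 85.9 units on the LSEC arrays and 125.6 and 124.0 units on the hepatocyte arrays. The spot exceeded it by 11.8 and 3.56 units in LSECs and by -5.78 and 9.73 units in hepatocytes. Among the 40 miRNA spots of the most similar brightness, 10 and 0 had a column value as high on the LSEC arrays, and 1 and 12 on the hepatocyte arrays. The miR-486 spot exceeded the column by 45.5 and 57.8 units in LSECs and by 23.9 and 23.9 units in hepatocytes. Across miRNA probes this column followed the spot's own log2 intensity at r = 0.964 to 0.982, a correlation across probes of 1 array. It was not used for the main values.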
